A study of Mus musculus with 8 samples.

Results

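The 42 genes described here encode the machinery that copies DNA in S phase, and they were followed across 8 arrays of CD45+/Sca1+ cells from mouse bone marrow and muscle. They were chosen by name, as genes of origin licensing, the replicative helicase, DNA polymerases, the sliding clamp and its loader, nucleotide supply, cyclin E with E2F1, and chromatin assembly. Of the 42 genes, 40 had a probe set named with that gene alone, out of 12393 named genes on the array, and the 40 genes had 70 probe sets. Gins2 and Chaf1a were not analysed here. The probe set with the highest mean intensity over the 8 arrays stands for each gene. A filter on low values (at least 2 arrays at or above an intensity of 38.4, the 40th percentile of all values) left 38 of the 40 genes for the tests, and Orc1 and Tyms did not pass it.

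The cells were sorted for CD45, which marks cells of the blood lineages, and for Sca1, a membrane protein found on mouse stem cells and on some mature cells. All mice were C57BL/6 and 6 to 8 weeks old. There were 4 groups of 2 arrays each: bone marrow (BM), uninjured muscle, muscle injured with cardiotoxin (Ctx), a venom component that kills muscle fibres, and muscle injured in the same way in mice given a marrow transplant (Ctx/BMT). Below, the Ctx/BMT group is named transplanted injured muscle and the Ctx group injured muscle. The time after injury, the pooling of animals, and the donor or host origin of cells in transplanted mice are not known from the labels used here. Nothing in the labels says that the 2 arrays of a group came from separate animals, so p-values here measure the spread between arrays alone, and that spread may be technical.

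DNA replication starts when the origin recognition complex, with Cdc6 and Cdt1, loads the ring of Mcm proteins onto DNA before S phase. Cdc45, the GINS proteins and Mcm10 turn that ring into an active helicase, after which primase and the DNA polymerases copy both strands with the help of the clamp PCNA and its loader RFC. Transcription of many of these genes rises before S phase under E2F factors, which Rb family proteins hold in check. Bone marrow holds dividing progenitors of the blood lineages, whereas most mature blood cells are not in cycle.

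The promoters of these genes were examined for sequence features because the genes were chosen by name, without regard to sequence. RefSeq promoter windows (GRCm38.p6, from 250 bases before to 50 bases after the annotated start) were found for 34 of the 42 genes, with 40 windows in all. An E2F octamer (TTTCCCGC, TTTCGCGC, TTTGCCGC or TTTGGCGC, on either strand) was present in 12 of these 40 windows (30%), against 744 of all 32851 windows of the same length (2.26%) and 1 of 28 windows of a list of mitosis genes (3.57%). The CHR element of mitosis genes (TTTGAA, on either strand) showed the opposite distribution, with 4 of 40 replication windows (10%), 20 of 28 mitosis windows (71.4%) and 17.9% of all windows. The NF-Y box (CCAAT, on either strand) was present in 55% of replication, 78.6% of mitosis and 37.4% of all windows. Both gene groups had more G and C than all windows (59.8% and 60% against 53.8%), and the motif shares were not adjusted for this. A match describes these letters only and shows no binding.

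The 250 bases before the start are shown for the 6 genes that passed the test in at least 1 comparison and had an E2F octamer there, 5′ to 3′ on the strand of the gene, with the octamers in capitals. Where 2 octamers of opposite strands overlap, as in Mcm5 and Mcm6, they form 1 longer run of capitals.
Cdc6, chr11:98907901-98908150, plus strand: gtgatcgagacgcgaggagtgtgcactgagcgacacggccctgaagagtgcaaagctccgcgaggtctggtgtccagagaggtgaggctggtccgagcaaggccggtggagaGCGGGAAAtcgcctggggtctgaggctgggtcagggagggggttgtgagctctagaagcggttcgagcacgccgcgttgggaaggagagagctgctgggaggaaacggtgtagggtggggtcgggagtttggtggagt
Mcm5, chr8:75109259-75109508, plus strand: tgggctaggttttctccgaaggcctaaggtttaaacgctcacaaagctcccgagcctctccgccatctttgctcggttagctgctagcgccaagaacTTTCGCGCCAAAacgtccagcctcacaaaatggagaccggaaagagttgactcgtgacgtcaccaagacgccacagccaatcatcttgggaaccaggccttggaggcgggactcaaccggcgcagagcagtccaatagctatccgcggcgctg
Mcm6, chr1:128359706-128359955, minus strand: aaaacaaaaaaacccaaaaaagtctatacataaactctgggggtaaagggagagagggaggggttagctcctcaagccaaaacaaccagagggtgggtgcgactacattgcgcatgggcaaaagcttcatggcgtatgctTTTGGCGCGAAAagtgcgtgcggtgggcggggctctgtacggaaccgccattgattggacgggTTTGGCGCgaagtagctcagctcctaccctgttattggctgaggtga
Mcm7, chr5:138171884-138172133, minus strand: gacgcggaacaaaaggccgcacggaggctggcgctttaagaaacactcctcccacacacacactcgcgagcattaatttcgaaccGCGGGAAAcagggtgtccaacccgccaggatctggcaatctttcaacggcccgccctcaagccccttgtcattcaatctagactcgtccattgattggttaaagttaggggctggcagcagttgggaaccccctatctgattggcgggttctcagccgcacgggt
Rfc3, chr5:151651209-151651458, minus strand: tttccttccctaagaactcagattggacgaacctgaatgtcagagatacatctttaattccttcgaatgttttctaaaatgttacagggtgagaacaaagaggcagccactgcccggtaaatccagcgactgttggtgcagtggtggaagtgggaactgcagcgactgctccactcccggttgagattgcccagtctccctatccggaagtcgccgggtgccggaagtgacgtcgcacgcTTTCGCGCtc
Uhrf1, chr17:56304063-56304312, plus strand: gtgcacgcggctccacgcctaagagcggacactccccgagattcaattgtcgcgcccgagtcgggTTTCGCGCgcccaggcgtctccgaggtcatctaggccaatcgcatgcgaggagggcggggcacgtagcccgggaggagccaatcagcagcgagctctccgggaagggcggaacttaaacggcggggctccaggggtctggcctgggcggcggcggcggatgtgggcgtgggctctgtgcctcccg

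Mcm5 and Mcm6, subunits of the Mcm ring, each had overlapping octamers on both strands, and Mcm6 had another octamer nearer to the start. Mcm7, Rfc3, Uhrf1 and Cdc6 each had 1 in the sequence shown. Mcm7 and Rfc3 also had 1 after the start. Mcm7 and Uhrf1 each had a further window, not shown, that held no octamer. Orc1 and Pola1, which passed in no comparison or were not tested, also had 1 before the start, and Cdt1, Lig1, Mcm3 and Pold1 had 1 or 2 after it. Rrm2, Tk1 and Pcna had none of these 4 octamers in their windows. The windows rest on the annotated starts, and sequence outside them was not searched, so a window without a match does not show that a gene lacks the octamer.

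**Figure D1:**
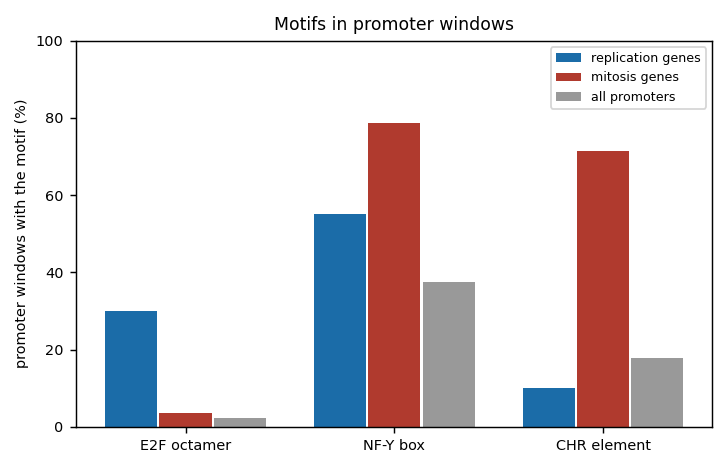
Share of RefSeq promoter windows (vertical axis, %) that hold an E2F octamer, an NF-Y box or a CHR element on either strand, for the 40 windows of replication genes, the 28 windows of mitosis genes and all 32851 windows. The E2F octamer is found in 30% of replication windows against 3.57% of mitosis windows, and the CHR element in 10% against 71.4%.

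The deposited intensities were already scaled to a common level by the authors, and with 2 arrays per group the standard error (SE) of log2 fold changes had a median of 0.45. Control probe sets measure both ends of the Gapdh and beta-actin transcripts, and the ratio of the 3' to the 5' signal falls towards 1 when the labelled RNA is long. For Gapdh this ratio was 10.7 to 24.4 in bone marrow, 13.6 to 46.9 in uninjured muscle and between 0.808 and 0.882 in both injured groups, and for beta-actin it was 5.68 to 5.75, 10.1 to 19 and 1.18 to 1.23. Every comparison of an injured group with an uninjured group therefore sets arrays of unlike RNA controls side by side, and for beta-actin the ratio also differed between uninjured muscle and bone marrow. The part of this in the results was not tested. Ptprc, the gene of CD45, had 4924 to 6996 on all 8 arrays. Ly6a, the gene of Sca1, was not analysed here. The summed intensity of 12 macrophage markers was 4206 to 4850 in bone marrow, 22242 to 43751 in uninjured muscle, 89083 to 94288 in injured and 87169 to 90835 in transplanted injured muscle.

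Bone marrow had the highest group mean for 31 of the 38 genes that passed the filter and the lowest for none. Transplanted injured muscle had the lowest mean for 22 of them, uninjured muscle for 9 and injured muscle for 7. The order of group means was not counted over all genes tested, so these counts have no background share beside them. The median intensity over these 38 genes was 435 and 477 on the 2 marrow arrays, 150 and 215 for uninjured muscle, 170 and 173 in injured muscle and 138 and 119 in transplanted injured muscle. For all 9506 genes that passed the filter it was 190 and 194, 166 and 193, 159 and 164, and 152 and 156. The replication genes thus stood above the median gene on both marrow arrays and below it on both transplanted arrays. The 2 arrays of uninjured muscle lay further apart than those of any other group.

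**Figure D2:**
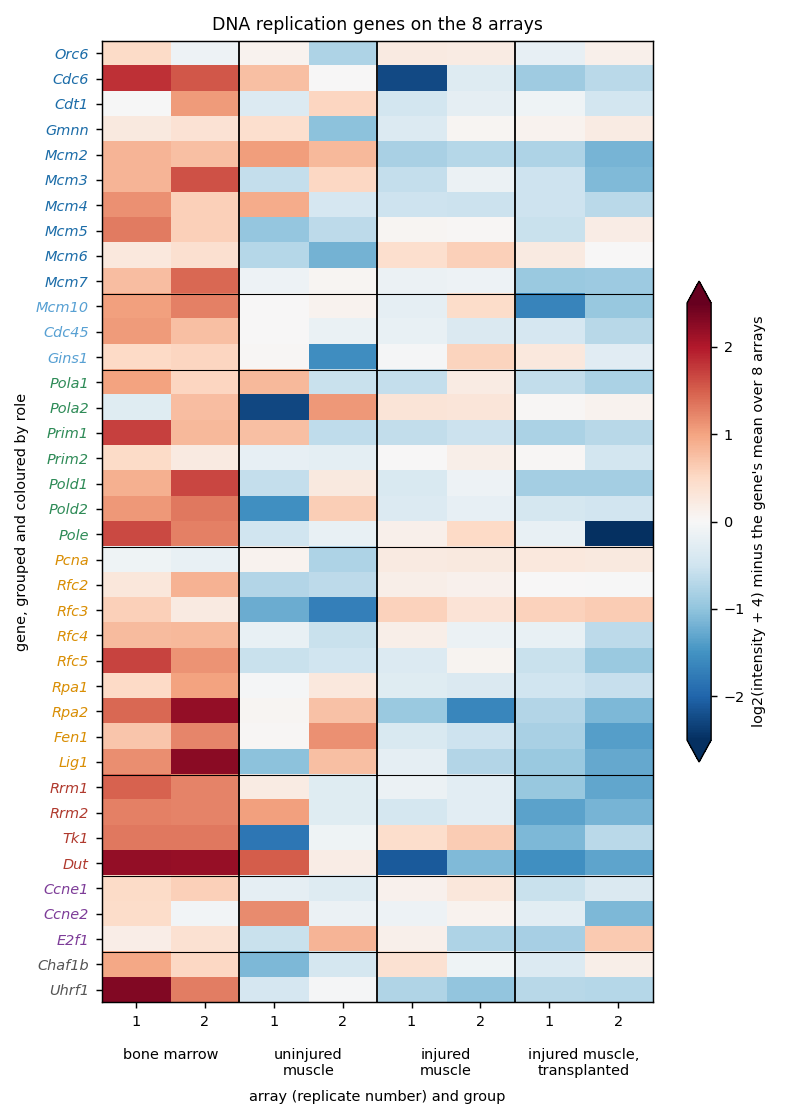
Heat map of the 38 replication genes that passed the filter (rows, grouped and coloured by role) on the 8 arrays (columns, 2 per group). Colour gives log2(intensity + 4) minus the gene's own mean over the 8 arrays, and the colour scale ends at 2.5 in each direction. Bone marrow has the highest group mean for 31 of the 38 genes, an order that was not counted over all genes tested. Pcna, highest on the 4 injured arrays, is an exception.

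The first comparison set uninjured muscle against bone marrow. In muscle, 8 of the 38 genes fell and none rose (limma, adjusted p at 0.05), or 21.1%, where 1.40% of all genes tested were lower and 5.85% higher. The genes that fell were 3 subunits of the clamp loader RFC (Rfc2, Rfc3, Rfc5), the helicase subunits Mcm5 and Mcm6, Rrm1 and Tk1 of nucleotide supply, and Uhrf1, which guides maintenance of DNA methylation at the fork. Values were lower on both muscle arrays than on both marrow arrays for 27 of the 38 genes, against a background of 22.0% of genes tested, and higher on both for none (background 23.7%). The median log2 fold change of the 38 genes was -1.19, beside -0.06 for all genes tested, and it was -1.16 for all 40 genes with no filter, beside 0.01. With each array centred on its median these became -1.37 and -0.24. In whole-group RNA such as this, fewer cycling cells and less RNA per cell cannot be told apart.

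Among the clamp loader subunits, Rfc5 had an intensity of 702 and 470 on the marrow arrays and 144 and 151 on the uninjured muscle arrays. The groups were well apart (log2 fold change -1.93, SE 0.35, limma adjusted p = 0.0162). Rfc2 had 678 and 1019 in marrow and 336 and 351 in muscle (log2 fold change -1.27, SE 0.30, adjusted p = 0.0453 by limma). Rfc3 had 104 and 80 in marrow and 26.3 and 18 in muscle, both under the filter value, so it was at least 2.25-fold lower in muscle when the muscle value is set to 38.4 (limma adjusted p = 0.0224). The 4th small subunit measured, Rfc4, had 226 and 229 against 112 and 86.1 and did not pass (log2 fold change -1.18).

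In the Mcm ring, Mcm6 had 911 and 1005 in marrow and 463 and 330 in uninjured muscle (log2 fold change -1.28, SE 0.28, limma adjusted p = 0.0357). Mcm5 had 841 and 509 against 170 and 214 (log2 fold change -1.76, SE 0.39, limma adjusted p = 0.0358). Both genes were apart in the 2 groups, and the spread between the marrow arrays was wider for Mcm5. Mcm7 had 2298 and 3662 against 1233 and 1405 by its brightest probe set, which did not pass, while 2 of its other 3 probe sets did. Mcm2 did not follow this order: it had 418 and 393 in marrow and 481 and 408 in muscle by its brightest probe set, and 411 and 402 against 60.6 and 234 by its second, which did not pass either.

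Among enzymes of nucleotide supply, Rrm1, the large subunit of ribonucleotide reductase, had 1533 and 1300 in marrow and 629 and 444 in uninjured muscle (log2 fold change -1.41, SE 0.31, limma adjusted p = 0.0339). Thymidine kinase Tk1 had 410 and 409 in marrow and 43 and 149 in muscle (log2 fold change -2.29, SE 0.53, limma adjusted p = 0.0447). The marrow arrays agreed closely for Tk1 and the muscle arrays did not. Uhrf1 had 600 and 290 in marrow and 87.3 and 115 in muscle (log2 fold change -2.02, SE 0.42, limma adjusted p = 0.0278). None of the 7 polymerase and primase genes passed, although all 7 had a log2 fold change below 0 and 5 of them were lower on both muscle arrays. None of the 3 measured helicase activation genes passed either.

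The number of genes that fell depended on the arrays in the fit, while the median stayed between -0.96 and -1.29 over the 8 fits that leave out 1 array. That number fell well below that of the full fit when either bone marrow array was left out. It also fell without any one of the 4 injured arrays, which only add to the estimate of the spread. It rose when either uninjured muscle array was left out. In each of these fits the share of all genes tested that were lower moved the same way. With only the 4 arrays compared the number was 0, where 0.137% of all genes tested were lower and 2.1% higher. With the replicate number as a block it was 5, where 1.21% were lower and 5.72% higher. Markers of B cell progenitors, cells that divide in the marrow, moved with the replication genes, and 4 of 9 tested markers fell. The summed intensity of the 11 with a probe set was 12354 to 13751 in marrow and 3623 to 4213 in uninjured muscle. Igll1 and Rag1 were under 38.4 on both muscle arrays (Pax5 and Rag2 were so in muscle and in marrow). For the 11 measured stem and progenitor markers the sum was 5289 to 8047 against 3594 to 3968, with Meis1 under 38.4 in muscle, and 2 of the 11 fell. These markers did not all move alike: 6 were lower and 2 higher on both muscle arrays, and 7 had a log2 fold change below 0. The 2 higher were Gata2 (444 and 469 in marrow, 664 and 618 in muscle) and Kit (231 and 191 against 298 and 289). Markers of tissue cells were higher in muscle: 9 of 12 macrophage, 8 of 10 fibroblast, 7 of 10 endothelial and 7 of 10 muscle fibre markers rose, and the beta-actin 3'/5' ratio was higher there too (10.1 and 19 against 5.68 and 5.75). Their part in the result was not tested.

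**Figure D3:**
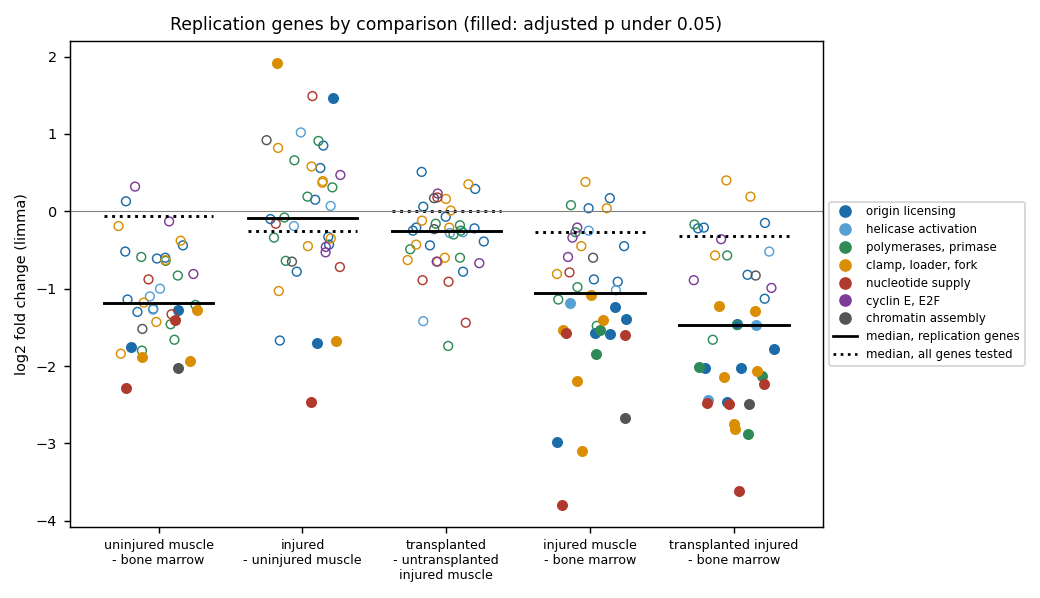
Log2 fold changes (limma, vertical axis) of the 38 replication genes in the 5 comparisons, 1 point per gene coloured by role, filled where the adjusted p was under 0.05. Solid bars mark the median of the replication genes and dotted bars that of all 9506 genes tested: -1.19 and -0.06 in the first comparison, and -1.47 and -0.32 in the last.

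Both injured groups were next set against bone marrow, 2 comparisons that share the marrow arrays. In injured muscle 17 of the 38 genes fell and none rose (44.7%, where 17.2% of all genes tested were lower and 12.6% higher), with a median log2 fold change of -1.05 beside -0.27 for all genes. In transplanted injured muscle 21 fell and none rose (55.3%, where 19.5% of all genes were lower and 12.0% higher), with a median of -1.47 beside -0.32. Values were lower than on both marrow arrays on both injured arrays for 31 genes (background 44.1%) and on both transplanted arrays for 33 (background 44.8%). They were higher on both for 2 genes (background 29.1%) and for 1 (background 27.9%). These comparisons carry the gap in RNA controls given above, and 5 of the genes that fell in each had another probe set with a log2 fold change above 0.

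Dut, which removes dUTP before it can enter DNA, had 707 and 699 in marrow, 441 and 173 in uninjured muscle, 32.2 and 68.2 in injured muscle and 49.9 and 58.4 in transplanted injured muscle. All 4 injured values were below every other value. Its log2 fold change against marrow was -3.79 (SE 0.51, limma adjusted p = 0.00151) in injured and -3.61 (SE 0.51, limma adjusted p = 0.00172) in transplanted injured muscle. Both were called under each alternative setting, but Dut had 1 tested probe set, so another choice of tested probe set could not change them. Rrm2, the small subunit of ribonucleotide reductase, had 1263 and 1247 in marrow, 386 and 436 in injured and 206 and 233 in transplanted injured muscle (log2 fold changes -1.60 and -2.49, limma adjusted p = 0.0232 and 0.00366). Its other 2 probe sets also lay below marrow in both. Rrm1, in contrast, was lower by its brightest probe set (494 and 454 in injured and 283 and 221 in transplanted injured muscle, log2 fold changes -1.57 and -2.48, limma adjusted p = 0.00706 and 0.000959) and higher by its second. The second had 81.6 and 99.2 in marrow, 609 and 604 in injured and 327 and 319 in transplanted injured muscle (log2 fold changes 2.70 and 1.80, limma adjusted p = 0.00134 and 0.00698). The direction of Rrm1 against marrow thus differs between its probe sets.

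Of the licensing genes, the loader Cdc6 had 216 and 178 in marrow, 101 and 59 in uninjured muscle, 8.95 and 46 in injured and 29.8 and 34.9 in transplanted injured muscle. It fell in both injured groups (log2 fold changes -2.98 and -2.47, SE 0.63, limma adjusted p = 0.00962 and 0.0192), and with low values set to 38.4 it was at least 4.73-fold lower in the transplanted group. Mcm4 had 1159 and 796 in marrow against 366 and 363 in injured and 364 and 329 in transplanted injured muscle, with log2 fold changes of -1.39 and -1.46 (limma adjusted p = 0.0473 and 0.038). Its second probe set was called lower as well (log2 fold changes -2.09 and -2.48). Mcm2 fell in both (log2 fold changes -1.57 and -1.78, limma adjusted p = 0.00751 and 0.0042), and its second probe set lay at -1.20 and -1.47 without passing. Mcm3 and Mcm7 were called lower in both by the brightest probe set. Another probe set of Mcm3 was called higher in injured muscle (27.9 and 118 in marrow, 235 and 267 in injured muscle, log2 fold change 2.03, limma adjusted p = 0.0339), so no direction is given for Mcm3.

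Mcm7 had 2298 and 3662 in marrow, 1213 and 1236 in injured and 709 and 714 in transplanted injured muscle (log2 fold changes -1.24 and -2.02, limma adjusted p = 0.0123 and 0.00148). Its 4 probe sets all lay below marrow in transplanted injured muscle and 3 of them were called; in injured muscle 1 of the 4 lay above, at 0.12. Of the helicase activators, Cdc45 had 186 and 149 in marrow, 74.9 and 66.6 in injured and 63.3 and 51.9 in transplanted injured muscle, and fell in both (log2 fold changes -1.19 and -1.47, limma adjusted p = 0.0312 and 0.0132). Mcm10, which helps to start the helicase, had 247 and 289 in marrow, 101 and 165 in injured and 35.3 and 59.6 in transplanted injured muscle. It passed in the transplanted group (log2 fold change -2.44, SE 0.39, limma adjusted p = 0.003) and not in the other (-1.02). The difference between the injured groups was not called for Mcm10.

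Among the polymerases, the primase subunit Prim1 fell in both injured groups by each of its 2 probe sets. The brighter one had 1123 and 600 in marrow, 220 and 231 in injured and 194 and 207 in transplanted injured muscle (log2 fold changes -1.85 and -2.01, limma adjusted p = 0.0246 and 0.017). Pold1, the catalytic subunit of polymerase delta, had 670 and 1148 against 274 and 329 and 196 and 198, and fell in both (log2 fold changes -1.53 and -2.13, limma adjusted p = 0.0217 and 0.00552). The leading-strand polymerase gene Pole passed only in transplanted injured muscle against marrow (log2 fold change -2.88, SE 0.71, limma adjusted p = 0.0169). It had 325 and 246 in marrow and 87.9 and 12.5 in transplanted injured muscle. The difference between the injured groups was not called for Pole.

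At the fork, the single-strand binding subunit Rpa2 had 364 and 620 in marrow, 67.2 and 39.8 in injured and 77.2 and 58.7 in transplanted injured muscle (log2 fold changes -3.10 and -2.75, limma adjusted p = 0.00189 and 0.00294). Its second probe set went the other way (29.2 and 47.6 in marrow, 106 and 93.7 in injured muscle, log2 fold change 1.32) without passing. Rpa1 fell in both (log2 fold changes -1.08 and -1.29, limma adjusted p = 0.0128 and 0.00582), and its second probe set lay below marrow too. The flap nuclease Fen1 fell too (log2 fold changes -1.41 and -2.06, limma adjusted p = 0.0352 and 0.00769), as did the DNA ligase gene Lig1, whose product seals the fragments of the lagging strand (log2 fold changes -2.19 and -2.82, limma adjusted p = 0.0284 and 0.0102). Rfc5 had 169 and 226 in injured and 145 and 111 in transplanted injured muscle and fell in both (log2 fold changes -1.54 and -2.14, limma adjusted p = 0.0133 and 0.00318). Uhrf1 had 67.9 and 57.2 and 71.6 and 70 (log2 fold changes -2.67 and -2.49, limma adjusted p = 0.00274 and 0.00343), but its dim second probe set, at 10.8 and 30.2 in marrow and 37.4 to 55 on the 4 injured arrays, lay above marrow in both without passing.

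Of the 17 genes lower in injured muscle, 5 had 1 tested probe set, 7 had several that all lay below marrow, and 5 had probe sets on both sides of 0. Of the 21 lower in transplanted injured muscle, these counts were 8, 8 and 5. With each gene's probe sets averaged, 11 and 18 genes fell, where 13.5% and 15.8% of all genes tested were lower. With the dimmest tested probe set in place of the brightest 10 and 12 fell and 1 rose in each. In that setting 13.3% and 15.2% of all genes tested were lower and 15% and 14.7% higher. The counts of 17 and 21 fell when an array of bone marrow or of either injured group was left out. They rose when an array of uninjured muscle was left out. The count of 17 fell most without either one of the untransplanted injured arrays. In each of these fits the share of all genes tested that were lower moved the same way. The markers of B cell progenitors had a summed intensity of 1031 to 1062 in injured and 2032 to 2338 in transplanted injured muscle, with 8 of the 11 under 38.4 on both arrays of each (2 of the 11 in marrow), while 8 of the 9 tested fell in each. All 12 macrophage markers rose in each, and 12 and 11 of 12 neutrophil markers fell. The part of this in the result was not tested.

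What injury changes in muscle CD45+/Sca1+ cells was asked by comparing injured with uninjured muscle. By their brightest probe sets, Mcm6 and Rfc3 rose and Mcm2, Dut and Rpa2 fell among the 38 genes, which is 5.26% higher and 7.89% lower, where 8.77% of all genes tested were higher and 15.1% lower. The median log2 fold change was -0.09 beside -0.25 for all genes, and 20 of the 38 lay below 0. The sign of this median depended on the choice of probe set. It was 0.20 with each gene's probe sets averaged, beside -0.10 for all genes. With the dimmest tested probe set it was 0.43, beside -0.14. With probe sets ending in _s_at or _x_at left out it was 0.39, beside -0.19. Values were higher on both injured arrays for 13 genes (background 24.5%) and lower on both for 9 (background 40.1%). With each array centred on its median 4 genes rose and 3 fell, the medians were 0.06 and -0.10, and 10.5% of all genes tested were higher and 11.8% lower. The share of called genes is near or under the background in this comparison.

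Probe sets of 1 gene disagreed here more than in any other of the 5 comparisons. Of the 18 genes with at least 2 tested probe sets, 12 had them on both sides of 0, against 2 of 18 for uninjured muscle and bone marrow. Where a probe set was called, those of the same gene differed in sign for 8 of 10 replication genes (80%), and for 897 of 1844 genes among all genes tested (48.6%). Mcm6 had 463 and 330 in uninjured and 1019 and 1141 in injured muscle by its brightest probe set (log2 fold change 1.46, SE 0.28, limma adjusted p = 0.00938). By its second probe set it had 431 and 439 against 161 and 142 and was called lower (log2 fold change -1.50, SE 0.33, limma adjusted p = 0.0147). Rpa2 was the other gene called both ways, lower by its brightest probe set (136 and 222 against 67.2 and 39.8, log2 fold change -1.67, limma adjusted p = 0.0284) and higher by its second (17.1 and 31 against 106 and 93.7, log2 fold change 1.93, limma adjusted p = 0.018). For these 2 genes the direction after injury cannot be given.

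Of the other genes whose probe sets differed in sign with 1 of them called, Rrm1 had 629 and 444 in uninjured and 494 and 454 in injured muscle by its brightest probe set, which did not pass, and 29.9 and 52.4 against 609 and 604 by its second (log2 fold change 3.80, SE 0.35, limma adjusted p = 0.001). Mcm7 had 1233 and 1405 against 1213 and 1236 by its brightest, and 80.1 and 122 against 666 and 725 by another (log2 fold change 2.76, SE 0.33, limma adjusted p = 0.00196). One probe set of Mcm3 rose from 22.9 and 15.6 to 235 and 267 and was at least 6.00-fold higher with the low values set to 38.4 (limma adjusted p = 0.00595), and its other 4 did not pass. The second probe set of Rpa1 rose (log2 fold change 1.20, limma adjusted p = 0.0453), and that of Uhrf1 was at least 1.18-fold higher (limma adjusted p = 0.0139), while the brightest of each had a log2 fold change below 0. Mcm2 fell by its brightest probe set (481 and 408 against 129 and 139, log2 fold change -1.70, SE 0.31, limma adjusted p = 0.0077), but its second lay at 0.53. The sign of the change therefore rested on the probe set for each of these 6 genes.

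Mcm4 and Rfc3 were the 2 genes with a called probe set and no difference in sign. For Mcm4 the second probe set fell (421 and 393 against 110 and 138, log2 fold change -1.69, limma adjusted p = 0.00741) and the brightest, at -0.78, did not pass. Both probe sets of Rfc3 rose: they had 26.3 and 18, and 18.1 and 18.7, in uninjured muscle and 102 and 86.1, and 101 and 72.8, in injured muscle. With the low values set to 38.4 the first was at least 2.31-fold higher and the second at least 2.12-fold (limma adjusted p = 0.009 and 0.0148). Dut, with 1 tested probe set, fell (log2 fold change -2.46, SE 0.51, limma adjusted p = 0.0122), and its second, which did not pass the filter, had 33.7 and 15.4 against 4.07 and 3.77. The count of 5 called genes rose when either uninjured muscle array was left out. The share of all genes tested that were higher rose there as well, and the share lower rose without replicate 2 alone. When either untransplanted injured array was left out, the count and both shares fell. In these fits the median of the replication genes was -0.09 to 0.14, beside -0.29 to -0.19 for all genes. The count was 2 with only the 4 arrays compared, where 3.96% of all genes tested were higher and 7.01% lower. With the dimmest tested probe set of each gene it was 8, where 11.7% were higher and 12.2% lower.

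**Figure D4:**
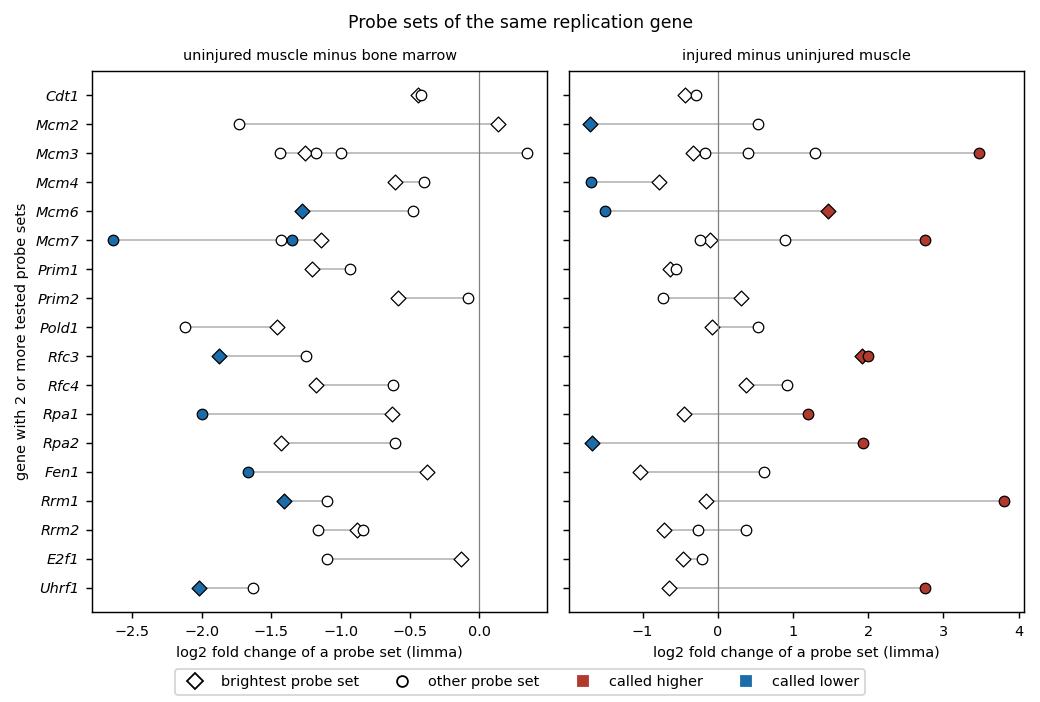
Log2 fold changes (limma, horizontal axes) of each tested probe set of the 18 replication genes with at least 2, for uninjured muscle against bone marrow (left) and injured against uninjured muscle (right). Diamonds are the brightest probe set of a gene, circles the others; red and blue mark probe sets called higher and lower. On the left 2 genes have points on both sides of 0, on the right 12.

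The effect of the transplant was asked by comparing transplanted with untransplanted injured muscle, whose RNA controls were alike (Gapdh 0.868 and 0.882 against 0.808 and 0.833). None of the 38 genes passed in limma, where 0.274% of all genes tested were lower and 0.0421% higher. At an unadjusted p under 0.05, 5 genes were lower and none was higher (13.2%, beside 7.35% and 2.41% of all genes). Values were lower on both transplanted arrays than on both untransplanted arrays for 22 of the 38 genes (background 26.5%) and higher for 3 (background 25.3%). The median log2 fold change was -0.26 beside 0.00 for all genes, and -0.13 beside 0.13 with each array centred on its median.

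Rrm1 had 494 and 454 in untransplanted and 283 and 221 in transplanted injured muscle by its brightest probe set, and 609 and 604 against 327 and 319 by its second. The log2 fold changes of these 2 probe sets, -0.91 and -0.90, were alike although their direction against bone marrow was opposite. Mcm7 had 1213 and 1236 against 709 and 714, and its 4 probe sets all lay below 0, with -0.78 for the brightest. Those of the 3 probe sets of Rrm2 were -0.89, -0.94 and -1.13, with 386 and 436 against 206 and 233 for the brightest. Tk1 had 219 and 252 against 71.5 and 99.3 (log2 fold change -1.44). Fitted on these 4 arrays alone, Rrm1, Rrm2, Tk1 and Mcm7 were called lower by limma, 4 of 38 genes, where 5.42% of all genes tested were lower and 2.51% higher. None of these was called in the fit of all 8 arrays, whose spread includes that between the uninjured muscle arrays. Without uninjured muscle replicate 1 the median of the replication genes was -0.25. Cell type markers moved in the same comparison: 10 of 10 fibroblast, 7 of 8 mast cell and 8 of 10 muscle fibre markers were lower on both transplanted arrays (0, 3 and 2 of them called), with median log2 fold changes of -1.70, -2.19 and -1.36. The summed fibroblast markers had 22901 to 23050 in untransplanted and 4457 to 4821 in transplanted injured muscle, and the mast cell markers 2974 to 3346 against 260 to 315. Of 12 T and NK cell markers, Gzma and Gzmb rose (log2 fold changes 4.32 and 3.35, limma adjusted p = 0.0123 for both). Gzma had 85.1 and 73.8 against 1660 and 1659, and Gzmb 138 and 114 against 1392 and 1246. These 2 made up most of the rise of the summed markers, which had 717 to 759 against 3657 to 3798. Of the 12, 7 were higher and 2 lower on both transplanted arrays, and 5 had a log2 fold change below 0. The part of these cell type markers in the values of the replication genes was not tested.

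Several replication genes did not pass in any comparison, 13 of the 38. Pcna, the sliding clamp, had 4091 and 3873 in marrow, 4663 and 2596 in uninjured muscle, 5169 and 5216 in injured and 5271 and 5207 in transplanted injured muscle. The 4 injured values for Pcna were above every other value. Cdt1, a licensing factor, had 1464 and 3075, 1151 and 2119, 1070 and 1247, and 1355 and 1063 in the same order of groups, and its inhibitor Gmnn had 452 and 490, 515 and 186, 302 and 393, and 405 and 442. The transcription factor E2f1 had 202 and 236, 121 and 326, 197 and 104, and 99.3 and 287. Both injured values for E2f1 were below both marrow values, without passing, and its other groups overlapped. Cyclin E1 (Ccne1) had 101 and 109, 59.9 and 56.2, 76.6 and 87.5, and 47.4 and 54.6. The other genes that did not pass were Orc6, Gins1, Pola1, Pola2, Prim2, Pold2, Ccne2 and Chaf1b. Pola2 had 19.6 and 239 on the 2 uninjured muscle arrays, the widest gap of these. Of the genes under the filter, Orc1 had 18 to 53.8 over the 8 arrays and the 3 probe sets of Tyms had 1.15 to 27.7.

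The mitosis genes, a list of 30 with 28 tested, were set beside the replication genes. Their median intensity was 230 and 241 in marrow, 135 and 90.8 in uninjured muscle, 192 and 207 in injured and 74.3 and 72.7 in transplanted injured muscle. In uninjured muscle against bone marrow 6 of 28 mitosis genes fell and none rose (limma). That is 21.4%, beside 21.1% of the replication genes and 1.40% of all genes tested. On both muscle arrays 21 of 28 were lower, beside 27 of 38 replication genes (background 22.0%). The fall in that comparison was thus not particular to the replication genes. After injury 8 of 28 rose and none fell, with a median log2 fold change of 0.24, against the 2 and 3 of 38 for replication genes, where 8.77% of all genes tested were higher and 15.1% lower, with a median of -0.25. In the same comparison 8 of 12 macrophage markers rose, and 11 of 12 neutrophil, 8 of 10 endothelial and 7 of 10 muscle fibre markers fell. The part of these in the counts was not tested. The genes named next are read from their brightest probe set alone, and this comparison carries the gap in RNA controls. Cdk1, the mitotic kinase, had 122 and 120 in uninjured and 372 and 525 in injured muscle (log2 fold change 1.84, SE 0.33, limma adjusted p = 0.00729), and Ube2c, which tags mitotic cyclins for destruction, had 56 and 88.5 against 615 and 512 (log2 fold change 2.92, SE 0.34, limma adjusted p = 0.00181). In transplanted against untransplanted injured muscle none passed in limma, but 19 of 28 were lower at an unadjusted p under 0.05, with a median of -1.26 (7.35% of all genes tested were lower in this way), and 25 of 28 were lower on both arrays (background 26.5%). Against bone marrow 21 of 28 mitosis genes fell in transplanted injured muscle, where 19.5% of all genes tested were lower. In injured muscle 5 fell and 1 rose (17.9% and 3.57%), near or under the background of 17.2% lower and 12.6% higher. The difference between the 2 lists was not tested. After injury the median of the replication genes ran from -0.09 to 0.43 with the choice of probe set.

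**Figure D5:**
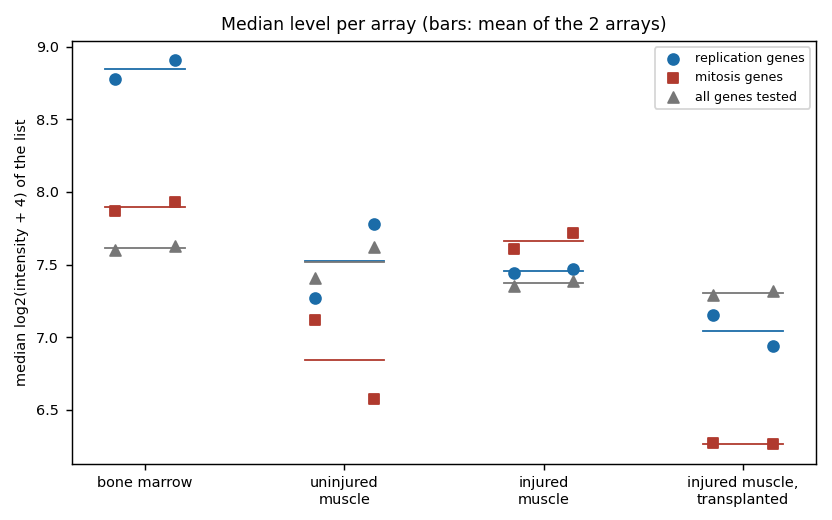
Median log2(intensity + 4) per array (vertical axis) of the 38 replication genes, the 28 mitosis genes and all 9506 genes tested, by group (horizontal axis); each point is 1 array and each bar the mean of 2. The replication genes are highest in bone marrow (8.78 and 8.91), and the mitosis genes are at 7.61 and 7.72 in injured and at 6.27 and 6.26 in transplanted injured muscle.

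A list of 37 other genes of DNA replication, 29 of them tested, stood beside the 42. None passed in uninjured muscle against bone marrow (limma), where 1.40% of all genes tested were lower and 5.85% higher. Their median log2 fold change was -0.62, beside -0.06 for all genes, and 26 of 29 lay below 0 (53.5% of all genes). On both muscle arrays 15 were lower (51.7%, background 22.0%) and none was higher (background 23.7%). Against bone marrow 10 fell and none rose in injured muscle (34.5% lower, background 17.2%), and 13 fell and none rose in transplanted injured muscle (44.8% lower, background 19.5%). After injury 3 rose and 3 fell, or 10.3% each way, near the background of 8.77% higher and under that of 15.1% lower. Cdc7, the kinase that fires origins, had 529 and 482 in marrow, 358 and 149 in uninjured muscle, 47.7 and 53 in injured and 50 and 64.7 in transplanted injured muscle (log2 fold changes against marrow -3.23 and -3.06, limma adjusted p = 0.00158 and 0.00182). Top2a, the topoisomerase that untangles copied chromosomes, had 1155 and 1371 in marrow and 231 and 221 in transplanted injured muscle (log2 fold change -2.46, limma adjusted p = 0.00101), against 717 and 774 in injured muscle. Of 15 further enzymes of nucleotide supply, none passed in uninjured muscle, while 5 and 6 fell in injured and transplanted injured muscle against marrow (33.3% and 40% of the 15, background 17.2% and 19.5%). CTP synthase (Ctps) was among them, with 478 and 545 in marrow and 126 and 99.4 in injured muscle (log2 fold change -2.15, SE 0.34, limma adjusted p = 0.00274).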

How the data were processed

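RNA of sorted CD45+/Sca1+ cells was hybridised to Affymetrix Mouse430A arrays, 1 array per sample, from 1 µg of total RNA labelled with biotin, per the labels' protocols. The authors deposited linear intensities, 1 for each probe set, scaled so that the mean without the lowest and highest 2% of probe sets is 250.09 to 250.12 on each array (checked). The submitters' processing notes name GCOS; how probes were summarised is not given in the sources used here.

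Of 22690 probe sets 64 controls were left out, and 20380 had 1 gene in the platform annotation, 691 several and 1555 none. RefSeq gave current symbols for 20351. A floor of 1 was set, and log2(intensity + 4) was fitted with limma 3.58.1 (R 4.3.3) as 1 mean per group over all 8 arrays, with an intensity trend, two-sided. Benjamini-Hochberg adjustment ran over the 16289 probe sets tested, at 0.05. "At least" folds set values under 38.4 to that filter value, which is no detection limit. The fit was tested on simulated data.

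Genes with full values are the up to 8 with the smallest p in each comparison, the brightest of each role and those whose probe sets disagreed; other named values were chosen after they were seen. The members, lists and tests were chosen with earlier results of these data known, and alternatives are in the closing section.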

Additional observations from a re-analysis of the deposited data

How the results depend on the processing

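Over the fits that leave out 1 of the 8 arrays, the number of replication genes called was 1 to 16 for uninjured muscle against bone marrow (8 with all arrays), 0 to 10 for injured against uninjured muscle (5), 0 to 1 for transplanted against untransplanted injured muscle (0), 4 to 19 for injured muscle against bone marrow (17) and 11 to 25 for transplanted injured muscle against bone marrow (21). The share of all genes tested that were called moved widely over these fits too. These ranges therefore do not show a change particular to the replication genes. With only the 4 arrays compared the first 3 counts were 0, 2 and 4. With the replicate number as a block 5 genes were called in uninjured muscle against bone marrow, and the other counts stayed at 5, 0, 17 and 21; deviations of same-numbered arrays correlated at 0.313 for bone marrow and uninjured muscle and between -0.0317 and 0.0031 for the other 5 pairs of groups, and the labels tie no arrays together, so whether the numbers pair the first 2 groups is not settled. With each gene's probe sets averaged, 11 were called in injured muscle against bone marrow, where 13.5% of all genes tested were lower and 13.8% higher. With the dimmest tested probe set of each gene, chosen after seeing the data, 8, 11 and 13 were called after injury and in injured and transplanted injured muscle against bone marrow. In that setting 12.2%, 13.3% and 15.2% of all genes tested were lower and 11.7%, 15% and 14.7% higher. Quantile normalization, median centring, a pseudocount of 17, no filter, low values set to 38.4, and probe sets ending in _s_at or _x_at left out (also chosen after seeing the data) kept each count within 1.5 times.

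Named genes changed sign in 19 of 510 values under alternatives that keep all arrays compared, each time with another choice of probe set, and another 59 of the 510 lost their call. With an array left out 0 of 408 changed sign and 147 lost their call. After injury the reversed values were 0.53 for Mcm2 (dimmest probe set, and _s_at and _x_at left out), -0.02 and -1.50 for Mcm6 and 0.13 and 1.93 for Rpa2 (mean and dimmest). In injured muscle against bone marrow they were 0.02, 0.17 and 0.29 for Mcm3 (mean, dimmest, _s_at and _x_at left out), 0.12 for Mcm7 (_s_at and _x_at left out), 0.57 and 2.70 for Rrm1 (mean and dimmest), and 1.32 for Rpa2 and 1.14 for Uhrf1 (dimmest). In transplanted injured muscle they were 0.04 for Rfc4 (both the dimmest and with _s_at and _x_at left out), and 0.98 for Rpa2, 1.80 for Rrm1 and 1.03 for Uhrf1 (dimmest). The cause was not tested. Calls that held under every alternative were those of Dut, Mcm10 and Rfc5 in transplanted injured muscle and of Dut in injured muscle, each against bone marrow. Each of these genes had 1 tested probe set, whose name does not end in _s_at or _x_at. Taking the dimmest tested probe set, or leaving out those endings, could therefore not change these calls.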

Other observations

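Genes that control entry into S phase, were taken from a list of 29 with 23 tested. In uninjured muscle against bone marrow 1 rose and 2 fell (4.35% and 8.70%, where 5.85% and 1.40% of all genes tested did), and after injury 1 rose and 2 fell, under the background of 8.77% and 15.1%. In uninjured muscle against bone marrow the kinase gene Cdk4 had 329 and 360 against 1159 and 800 (log2 fold change -1.47, SE 0.29, limma adjusted p = 0.0224), its partner cyclin D1 (Ccnd1) had 869 and 740 against 2560 and 1649 (log2 fold change -1.35, limma adjusted p = 0.0277), and the CDK inhibitor gene Cdkn1c had 328 and 176 against 33.1 and 50.2 (log2 fold change 2.45, SE 0.46, limma adjusted p = 0.0194). After injury Cdk4 rose to 788 and 719 (log2 fold change 1.12, limma adjusted p = 0.0259), whereas cyclin D2 (Ccnd2) fell by 1.11 and the retinoblastoma gene Rb1 by 1.49 on the log2 scale (limma adjusted p = 0.0297 and 0.0153). Each gene in this section is read from its brightest probe set alone. After injury, where a probe set was called, those of the same gene differed in sign for 897 of 1844 genes (48.6%). That comparison also carries the gap in RNA controls. Cks1b, a small partner of CDKs, had 1687 and 2578 in marrow, 903 and 739 in injured and 312 and 327 in transplanted injured muscle (log2 fold changes against marrow -1.35 and -2.69, limma adjusted p = 0.0125 and 0.000625).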
